A study of Mus musculus with 6 samples.

Results

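The enzymes that make and use glutathione, together with the catalase, superoxide dismutase, thioredoxin and peroxiredoxin enzymes that remove reactive oxygen, were compared between RFC1-/- embryos and their RFC1+/+ littermates, to ask which of them differ in expression when the reduced folate carrier is lost. The set holds 44 genes chosen by name, and 40 of them had a probe set annotated to that gene symbol alone. These 40 genes were measured by 77 of the 45101 probe sets on the array, and they are 40 of the 18194 genes with such a probe set. Ggt1, Prdx5 and Prdx6 have no probe set of their own symbol in the annotation used here, and the 5 probe sets of Prdx1 are shared with another symbol, so these 4 genes were not analysed here.

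RNA came from whole mouse embryos at E9.5, with 1 embryo per array. The 3 RFC1-/- embryos carried a targeted inactivation of both copies of Slc19a1, the gene for the reduced folate carrier, and showed craniorachischisis, an open neural tube along brain and spine, without fusion of chorion and allantois. The 3 RFC1+/+ embryos were littermates of normal appearance, 1 from each of the same 3 litters. All 6 embryos were on the inbred SWV background, onto which the mutation had been moved from a C57BL/6J hybrid stock. Whether they also shared the sequence beside the targeted gene was not tested. Each had a heterozygous RFC1+/- dam injected subcutaneously with folic acid at 25 mg/kg each day. The paper describes RFC1-/- embryos as delayed in development at mid-gestation, and the stages of these 6 embryos were not compared. Genotype, malformation, the missing placental connection and any delay therefore came together in the RFC1-/- embryos and cannot be told apart here. The membranes outside the embryo had been taken off for genotyping. In whole embryos, fewer cells of a type and less RNA per cell cannot be told apart either.

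Glutathione is a small cysteine-containing peptide. Glutamate cysteine ligase and glutathione synthetase build it, and glutathione reductase restores it after oxidation. Glutathione peroxidases spend it to reduce hydrogen peroxide and lipid peroxides, and glutathione transferases join it to reactive compounds so that these can be exported. Superoxide dismutases turn superoxide into hydrogen peroxide, which catalase, the glutathione peroxidases and the peroxiredoxins remove, and the thioredoxin system supplies the peroxiredoxins with electrons. Many of these genes are targets of the transcription factor Nrf2, encoded by Nfe2l2, which Keap1 holds in check until oxidants or electrophiles release it. Folate and glutathione metabolism meet at homocysteine, which can be turned back into methionine with a folate-borne methyl group or passed on to cysteine.

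Differences are RFC1-/- minus RFC1+/+ within litters on the log2 scale, where 1 unit is a doubling, and a gene is called at a limma Benjamini-Hochberg adjusted p under 0.05 over all 18194 genes. Array medians lay between 5.43 and 5.49. The RFC1+/+ embryo of litter 1 lay over 1.5 log2 units above the other 5 embryos on 16 probe sets and the RFC1-/- embryo of litter 3 on 23, against 0 for each of the other embryos. All 12 visceral endoderm markers were higher in RFC1-/- embryos, and their mean level was 9.53 to 11.48 in RFC1-/- embryos and 6.06 to 7.67 in RFC1+/+ embryos. The paper had already reported Ttr, Apoa1, Apom, Rbp4, Cubn and Amn of this list as higher, so the count is not independent of its results. Of 10 primitive erythroid markers measured 8 were lower, with mean levels of 5.41 to 6.17 in RFC1-/- embryos and 8.26 to 8.91 in RFC1+/+ embryos. Of 9 neural progenitor markers 8 were lower, and of 5 parietal endoderm markers 1 (Sox7) was higher. No trophoblast, decidua or macrophage marker was called in limma, of 4, 3 and 5 measured. Slc19a1 itself had 9.97, 10.10 and 9.84 in the RFC1-/- embryos of litters 1, 2 and 3, against 9.11, 9.10 and 8.89 in the RFC1+/+ embryos. Its probe set was 0.93 higher in the RFC1-/- embryos (adjusted p = 0.00701) and so does not check the genotype, and which part of the transcript the inactivated allele still makes was not tested.

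Most of the antioxidant genes differed little between the genotypes, though a smaller share of them than of all genes. Those called higher were transferases and a secreted peroxidase. Of the 40 genes, 5 were higher in RFC1-/- embryos (Gstm1, Gstm2, Gstt1, Gstz1 and Gpx3), 0 were lower and 35 were not called. Among all genes 3.67% were called higher and 1.65% lower, 5.32% in either direction. At an unadjusted p under 0.05, limma had 10 of the 40 genes higher and 0 lower, beside 10.4% higher and 8.05% lower of all genes. The median difference of the 40 genes was 0.06, with 0.09, 0.03 and 0.09 in litters 1, 2 and 3, beside -0.01 over all genes tested. In 26 of the 40 genes the mean difference was smaller than 0.25 in size, that is in 65% of them, beside 78.0% of all genes. The 3 RFC1-/- embryos lay above all 3 RFC1+/+ embryos in 10 genes and below them in 4, where 12.8% and 13.4% of all genes did so. Over the 77 probe sets, tested among all 45101, 3 were called higher and 0 lower, beside 1.87% higher and 0.882% lower of all probe sets, 2.75% in either direction. At an unadjusted p under 0.05 limma had 12 higher and 4 lower of the 77, beside 7.8% and 7.26% of all probe sets. With 1 litter left out the calls among the 40 genes were 1 higher without litter 1 (1.95% of all genes in either direction), 1 higher without litter 2 (4.14%), and 6 higher and 1 lower without litter 3 (6.59%).

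**Figure D1:**
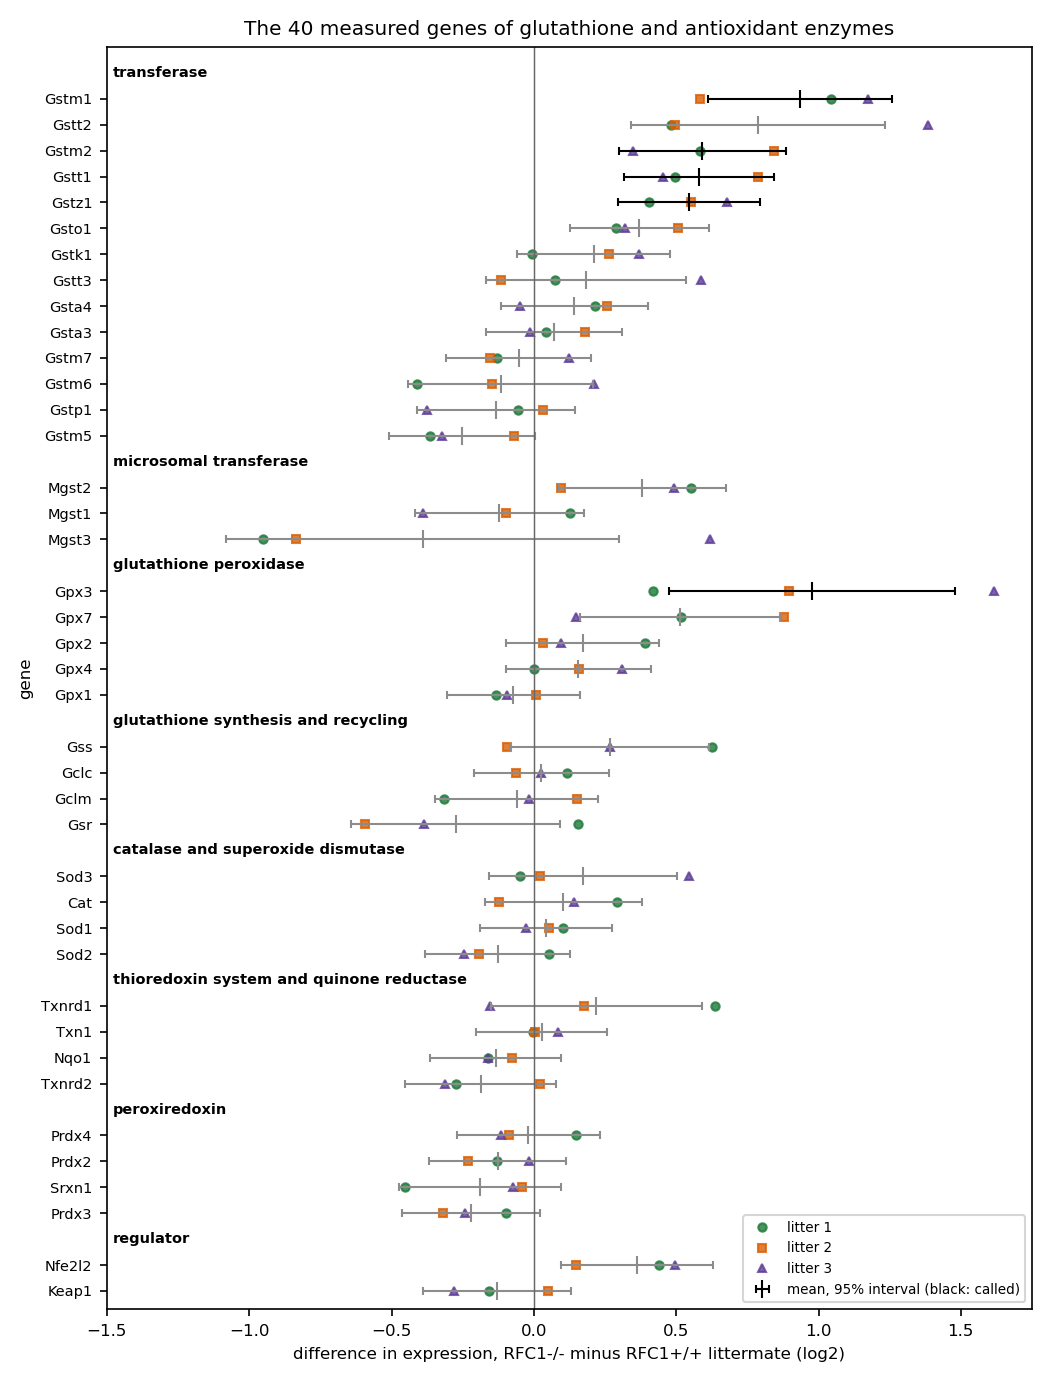
Mean difference RFC1-/- minus RFC1+/+ of each of the 40 genes by enzyme class (horizontal axis, log2; bars are 95% confidence intervals from limma, coloured points the 3 litters, black bars the genes called). The 5 called genes lie between 0.55 and 0.98, and most of the others lie within 0.25 of 0.

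The 14 soluble glutathione transferases held 4 of the 5 calls, and their median difference was 0.20. Gstm1, a mu class transferase that joins glutathione to electrophilic compounds, had log2 levels of 8.05, 7.50 and 8.16 in the RFC1-/- embryos of litters 1, 2 and 3, against 7.01, 6.92 and 6.98 in the RFC1+/+ embryos. The groups did not overlap, and the RFC1+/+ embryos lay far closer together than the RFC1-/- embryos. The difference was 0.93 (SE 0.14, 95% interval 0.61 to 1.26, 3 litters), a 1.91-fold higher level, with an adjusted p of 0.0148. Without litter 1 the adjusted p was 0.0636.

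Gstm1 was read by 4 probe sets, which did not give the same size of difference. The brightest, 1416416_x_at, carries a suffix for probes that may also match other transcripts, and other mu class genes are close in sequence, so part of its signal may belong to them. The probe set 1448330_at, without that suffix, had 7.21, 6.53 and 7.54 in RFC1-/- embryos and 6.15, 6.16 and 5.68 in RFC1+/+ embryos. Its difference of 1.10 was as large, but with an adjusted p of 0.076 over all probe sets it was not called. The other probe sets, 1425626_at and 1425627_x_at, differed by 0.31 and 0.29, with adjusted p of 0.419 and 0.286. With the mean of all 4 probe sets as the gene's value, Gstm1 was not called (adjusted p = 0.0689).

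Gstm2, its neighbour on chromosome 3 and also a mu class transferase, had 6.34, 6.55 and 6.11 in RFC1-/- embryos, against 5.76, 5.71 and 5.76 in RFC1+/+ embryos. The groups were apart again, with the smallest gap in litter 3. The difference was 0.59 (SE 0.12), or 1.51-fold, with an adjusted p of 0.043, and the call was lost without litter 1 (0.184) or litter 2 (0.152), after a second quantile normalization (0.0528), with arrays centred on their median (0.0701), under the variation filter (0.121) and when tested among all probe sets (0.0561).

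Gstt1, a theta class transferase that acts on small halogenated compounds, had 7.11, 7.42 and 7.49 in RFC1-/- embryos, against 6.61, 6.63 and 7.04 in RFC1+/+ embryos. Its highest RFC1+/+ value came within 0.1 of its lowest RFC1-/- value, but each RFC1-/- embryo was well above its own littermate. The difference was 0.58 (SE 0.11), or 1.49-fold, with an adjusted p of 0.0344. The call was lost without litter 1 (0.136) or litter 2 (0.127), without the litter as a block (0.0598) and with arrays centred on their median (0.0528). Whether sequence carried along with the targeted Slc19a1 allele reaches Gstt1, Gstt2 and Gstt3, which lie close together on chromosome 10, was not tested.

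Gstz1, the zeta class enzyme that isomerises maleylacetoacetate in the breakdown of tyrosine, had 7.30, 7.34 and 7.35 in RFC1-/- embryos, against 6.89, 6.79 and 6.67 in RFC1+/+ embryos. The RFC1-/- embryos were nearly level with each other, and the groups were clearly apart. The difference was 0.55 (SE 0.10), or 1.46-fold, with an adjusted p of 0.0344. Leaving out any 1 litter ended this call, with adjusted p between 0.0535 and 0.117, as did an intensity trend in the variance (0.0502).

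**Figure D2:**
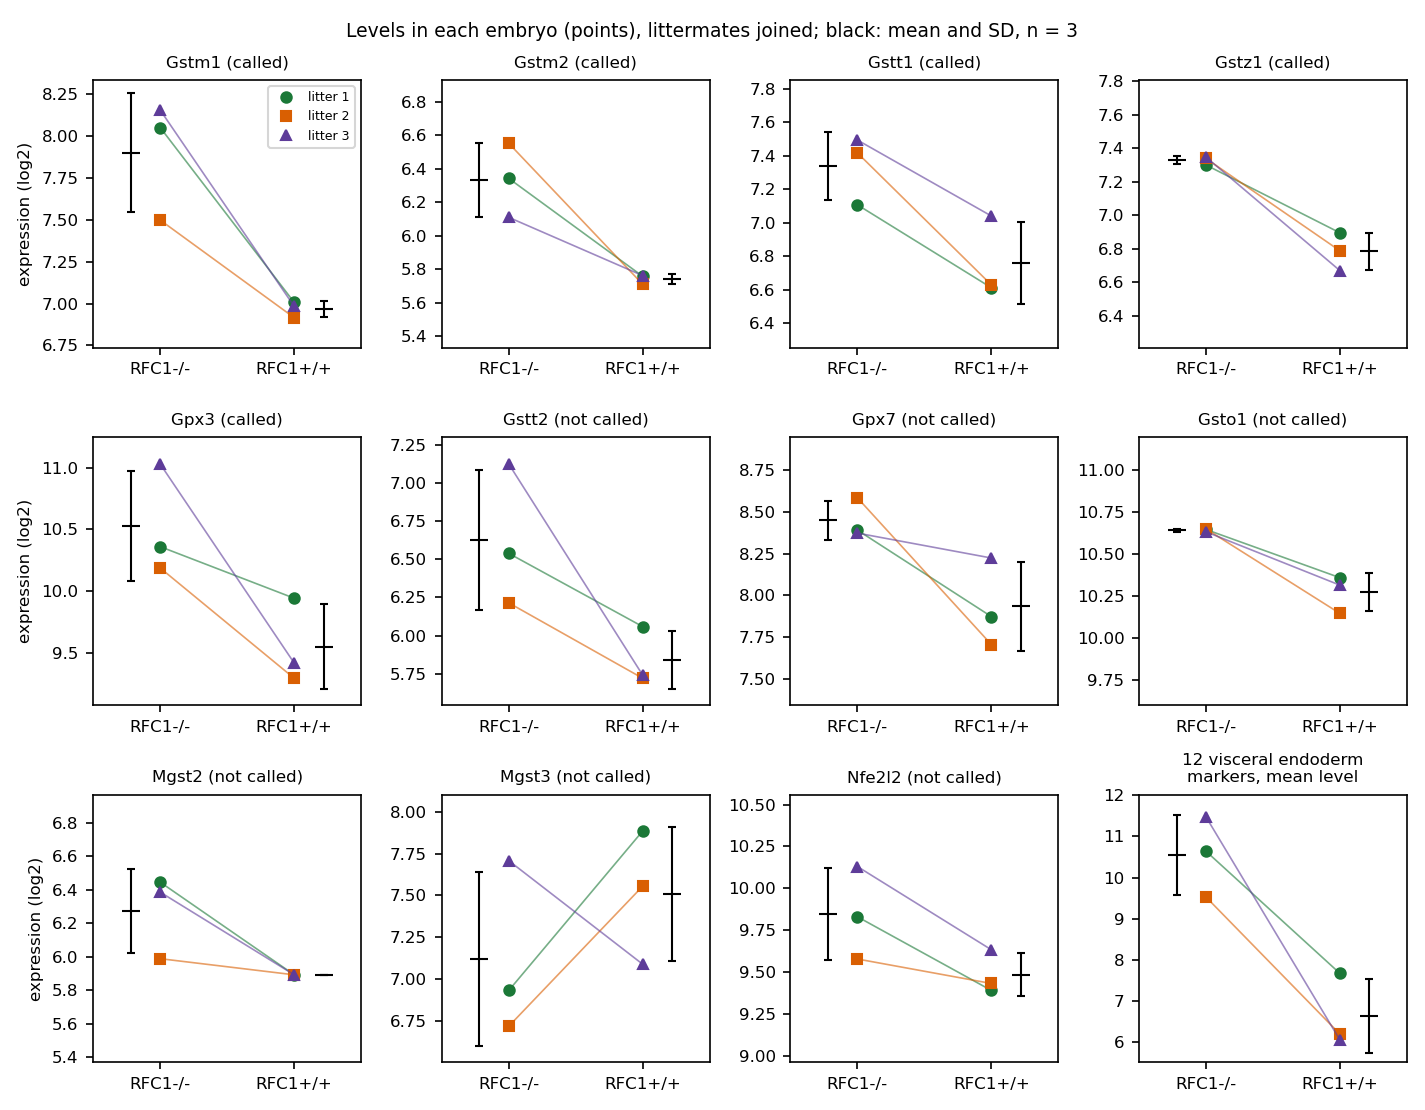
Log2 expression (vertical axis) of 11 genes of the set and the mean of 12 visceral endoderm markers in each embryo, RFC1-/- left and RFC1+/+ right, with lines joining littermates and black bars for mean and SD (n = 3). The lines of Gstm1, Gstm2, Gstt1, Gstz1 and Gpx3 all run downward to the RFC1+/+ embryo, while those of Mgst3 cross.

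The promoters of the called genes are shown because Nrf2 acts through a short DNA element, the antioxidant response element, whose core can be looked for in them. Windows of 250 bases before to 50 bases after each transcript start were taken from RefSeq on GRCm38.p6, and 38 of the 44 genes had at least 1 window. The core was searched as TGACNNNGC and the TATA box as TATAAA, both on both strands. The last 150 bases before 1 start are printed 5′ to 3′ on the gene's own strand, and capitals mark a motif match. They lie at chr3:108017819-108017968 (minus strand) for Gstm1, chr3:107986421-107986570 (minus) for Gstm2, chr10:75797732-75797881 (minus) for Gstt1, chr12:87147015-87147164 (plus) for Gstz1 and chr11:54902704-54902853 (plus) for Gpx3.
Gstm1: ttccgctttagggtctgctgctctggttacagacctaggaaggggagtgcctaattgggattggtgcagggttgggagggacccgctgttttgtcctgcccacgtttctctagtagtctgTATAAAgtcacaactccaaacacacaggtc
Gstm2: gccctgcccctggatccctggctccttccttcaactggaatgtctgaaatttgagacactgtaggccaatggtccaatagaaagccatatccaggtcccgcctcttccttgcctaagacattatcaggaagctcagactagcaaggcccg
Gstt1: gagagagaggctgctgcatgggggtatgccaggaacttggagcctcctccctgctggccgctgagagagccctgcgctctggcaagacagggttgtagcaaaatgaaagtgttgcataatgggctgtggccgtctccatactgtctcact
Gstz1: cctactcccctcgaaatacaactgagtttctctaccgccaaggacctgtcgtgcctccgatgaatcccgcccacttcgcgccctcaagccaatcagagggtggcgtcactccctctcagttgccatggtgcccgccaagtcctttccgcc
Gpx3: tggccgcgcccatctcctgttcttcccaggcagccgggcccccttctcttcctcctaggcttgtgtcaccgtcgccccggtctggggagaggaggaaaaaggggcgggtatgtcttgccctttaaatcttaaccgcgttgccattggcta

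None of the 5 called genes had the antioxidant response element core in any of its windows (0 of 5), and Gstm1 alone of them had a TATA box, at -30. The core was present in 11 of the 38 genes with a window (28.9%), beside 14.0% of 27025 genes with a window in the reference, and TATAAA in 10 of 38 (26.3%) beside 15.7%. Of the 11 genes with the core 9 were measured. Their differences lay between -0.25 and 0.36, and 0 were called. A pair of them is shown for comparison with the called genes. Gclm, the regulatory subunit of glutamate cysteine ligase, has the core on the reverse strand at chr3:122245407-122245556 (plus), and Txnrd1, cytosolic thioredoxin reductase, likewise at chr10:82859056-82859205 (plus). These windows are short, and elements farther from the start are outside them.
Gclm: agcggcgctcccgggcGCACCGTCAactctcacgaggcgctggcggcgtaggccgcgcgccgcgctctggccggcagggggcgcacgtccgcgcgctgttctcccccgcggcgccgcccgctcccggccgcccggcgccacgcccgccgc
Txnrd1: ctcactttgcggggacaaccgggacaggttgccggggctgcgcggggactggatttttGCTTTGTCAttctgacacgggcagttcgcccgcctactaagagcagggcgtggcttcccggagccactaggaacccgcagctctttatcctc

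Among the soluble transferases that were not called, Gstt2 and Gsto1 had the largest differences. Gstt2, a theta class gene close to Gstt1 on chromosome 10, had 6.54, 6.21 and 7.13 in RFC1-/- embryos, against 6.06, 5.72 and 5.74 in RFC1+/+ embryos. The groups did not overlap, and litter 3 had by far the widest gap. The difference was 0.79 (SE 0.19) with an adjusted p of 0.066. Without litter 3 it was smaller, 0.49, with an adjusted p of 0.0461.

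Gsto1, the omega class enzyme that reduces dehydroascorbate, had 10.65, 10.65 and 10.63 in RFC1-/- embryos and 10.36, 10.15 and 10.31 in RFC1+/+ embryos. It was the tightest of the larger differences, 0.37 (SE 0.10), with an adjusted p of 0.099 and groups that did not overlap. The other mu class genes of the chromosome 3 cluster were not called. Gstm5 differed by -0.25 (interval -0.51 to 0.00, adjusted p = 0.276), Gstm6 by -0.12 and Gstm7 by -0.05, and Gstm3 and Gstm4, which are outside the set, by 0.08 and 0.40. For Gstt3, beside Gstt1 on chromosome 10, the difference was 0.18. The pi class Gstp1 differed by -0.13, the kappa class Gstk1 by 0.21, and the alpha class Gsta3 and Gsta4 by 0.07 and 0.14. Gsta4, which clears the lipid peroxidation product hydroxynonenal, had means of 11.39 in RFC1-/- embryos and 11.24 in RFC1+/+ embryos. Gsta3, Gstm6 and Gstt3 lay below the median of all values, 5.46, in both groups, where differences on these arrays are compressed.

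The microsomal transferases, which sit in membranes, had 0 of 3 calls. Mgst3, which reduces lipid hydroperoxides, had 6.93, 6.72 and 7.71 in RFC1-/- embryos, against 7.89, 7.56 and 7.09 in RFC1+/+ embryos. It was lower in RFC1-/- embryos by 0.95 and 0.84 in litters 1 and 2 and higher by 0.62 in litter 3, so that the mean difference of -0.39 had an adjusted p of 0.58. Without litter 3 the difference was -0.90 with an adjusted p of 0.00527, and without litter 1 or litter 2 it was -0.11 (0.992) and -0.17 (0.899). The second probe set of Mgst3 lay below the median of all values, with 4.72, 4.57 and 5.24 in RFC1-/- embryos and 4.65, 4.71 and 4.64 in RFC1+/+ embryos. Mgst2, an enzyme that can make leukotriene C4, had 6.45, 5.99 and 6.39 in RFC1-/- embryos and 5.89 in all 3 RFC1+/+ embryos, a difference of 0.38 (adjusted p = 0.149). The 3 RFC1+/+ values are the same to every deposited digit, which is so for 2 of the 45101 probe sets, so their spread is not a usual one. Mgst1 differed by -0.12.

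**Figure D3:**
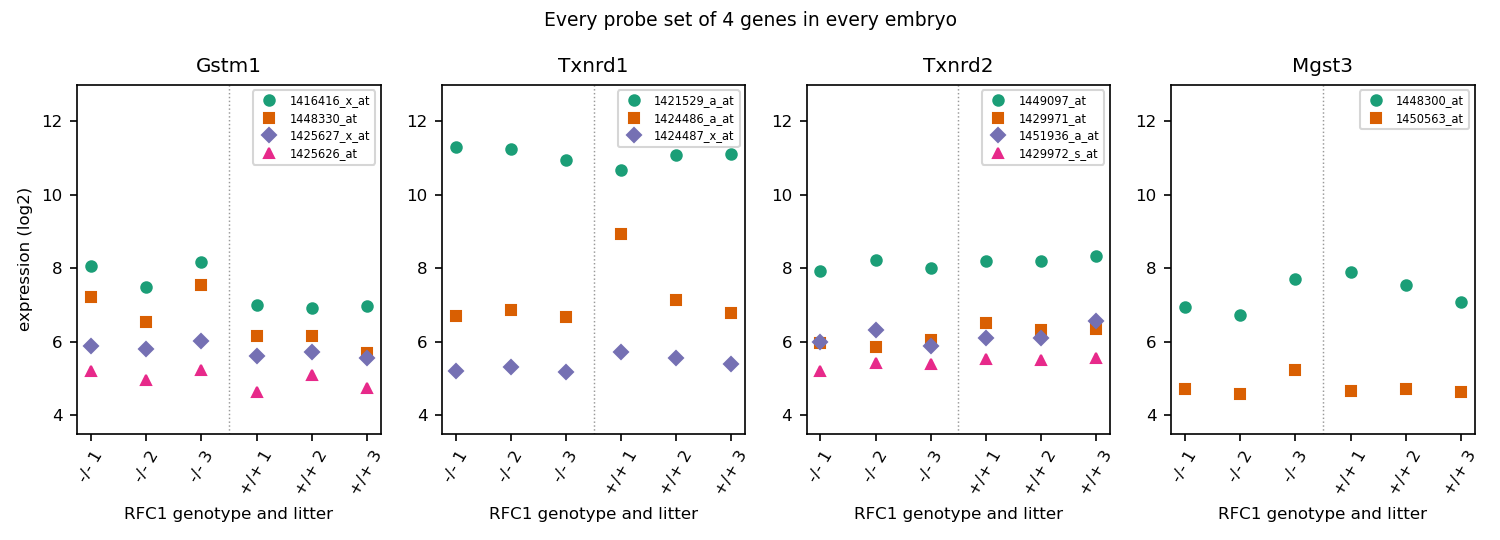
Log2 expression (vertical axis) of every probe set of Gstm1, Txnrd1, Txnrd2 and Mgst3 in each embryo, RFC1-/- of litters 1 to 3 left of the dotted line and RFC1+/+ of litters 1 to 3 right of it. The Gstm1 probe sets differ in level and in difference, and 1 Txnrd1 probe set stands at 8.92 in the RFC1+/+ embryo of litter 1 alone.

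Of the 5 glutathione peroxidases 1 was called. Gpx3, the secreted peroxidase of plasma and other extracellular fluid and a selenoprotein, had 10.36, 10.19 and 11.03 in RFC1-/- embryos, against 9.94, 9.29 and 9.41 in RFC1+/+ embryos. The groups did not overlap, and the gap within litters was widest in litter 3, at 1.62, beside 0.42 in litter 1 and 0.89 in litter 2. The mean difference was 0.98 (SE 0.21, interval 0.47 to 1.48), or 1.97-fold, with an adjusted p of 0.0491, the largest difference of the 40 genes and the one nearest the threshold. The call was lost without litter 2 (0.0926), under 6 other alternatives (0.0519 to 0.0705) and when tested among all probe sets (0.0638).

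Gpx7, a peroxidase of the endoplasmic reticulum, had 8.39, 8.58 and 8.37 in RFC1-/- embryos and 7.87, 7.71 and 8.22 in RFC1+/+ embryos. Its difference of 0.51 had an adjusted p of 0.113. Without litter 3, in which the littermates were closest, the difference was 0.70 (0.0214), without litter 2 it was 0.33 (0.356) and without litter 1 it was 0.51 (0.356). The intracellular enzymes that most cells use differed less. Gpx1 averaged 11.70 in RFC1-/- embryos and 11.77 in RFC1+/+ embryos (difference -0.07, interval -0.31 to 0.16), and Gpx4, which reduces lipid peroxides within membranes, averaged 11.87 in RFC1-/- embryos and 11.72 in RFC1+/+ embryos (0.16, interval -0.10 to 0.41). Gpx2, a peroxidase known from gut epithelium, differed by 0.17.

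The genes that build and recycle glutathione itself had 0 of 4 calls and a median difference of -0.02. Gclc and Gclm, the catalytic and regulatory subunits of glutamate cysteine ligase, the rate-limiting enzyme, differed by 0.03 (interval -0.21 to 0.26) and -0.06 (interval -0.35 to 0.23). The second probe set of Gclm differed by 0.21 (interval -0.06 to 0.48) and was not called. Gss, glutathione synthetase, had 7.10, 7.03 and 7.23 in RFC1-/- embryos and 6.48, 7.12 and 6.96 in RFC1+/+ embryos. On this probe set its difference of 0.27 (adjusted p = 0.424) came mostly from litter 1, and without that litter it was 0.09. The second probe set of Gss differed by 0.13, with 0.10, 0.13 and 0.15 in litters 1, 2 and 3, and was not called. Gsr, glutathione reductase, had 7.88, 7.93 and 7.96 in RFC1-/- embryos and 7.73, 8.53 and 8.35 in RFC1+/+ embryos, a difference of -0.28 (adjusted p = 0.426). In both genes the RFC1+/+ embryo of litter 1 was the lowest of the 6.

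Catalase and the superoxide dismutases had 0 of 4 calls. Sod1, the cytosolic copper and zinc enzyme, averaged 13.09 in RFC1-/- embryos and 13.04 in RFC1+/+ embryos, and its difference of 0.04 had an interval from -0.19 to 0.28. Sod2, the mitochondrial manganese enzyme, differed by -0.13, and Cat by 0.10, with groups that overlapped. Sod3, the extracellular enzyme, was below the median of all values in both groups and differed by 0.17. Its differences in litters 1, 2 and 3 were -0.05, 0.02 and 0.54.

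The thioredoxin system and the quinone reductase Nqo1 had 0 of 4 calls. Txn1, thioredoxin, had means of 13.42 in RFC1-/- embryos and 13.39 in RFC1+/+ embryos (difference 0.03, interval -0.20 to 0.26). Nqo1, a standard readout of Nrf2, was near the floor of the arrays, at 3.96, 4.08 and 3.96 in RFC1-/- embryos and 4.12, 4.16 and 4.12 in RFC1+/+ embryos, so that a small change in it would not be seen. Txnrd1 differed by 0.22 on its brightest probe set, while both of its other probe sets had differences below 0, and Txnrd2, the mitochondrial reductase, by -0.19.

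The other probe sets of the reductases were singled out after their values were seen. The Txnrd1 probe set 1424486_a_at had 6.70, 6.87 and 6.67 in RFC1-/- embryos and 8.92, 7.15 and 6.78 in RFC1+/+ embryos, so that 1 embryo stood apart. It is among the 16 probe sets on which that RFC1+/+ embryo of litter 1 lay over 1.5 units above all others. Prl8a2, a prolactin family gene of the decidua, is another of them, with 5.30, 4.49 and 7.84 in RFC1-/- embryos and 11.17, 5.68 and 6.66 in RFC1+/+ embryos, and its part in the Txnrd1 value was not tested. The remaining Txnrd1 probe set, 1424487_x_at, had 5.21, 5.30 and 5.17 in RFC1-/- embryos and 5.71, 5.56 and 5.40 in RFC1+/+ embryos. Its groups did not overlap, and its difference of -0.33 had an adjusted p of 0.179 over all probe sets. The Txnrd2 probe set 1429971_at had 5.97, 5.86 and 6.06 in RFC1-/- embryos and 6.52, 6.32 and 6.34 in RFC1+/+ embryos. Its difference of -0.43 was the same way in every litter, with an adjusted p of 0.090 over all probe sets.

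The peroxiredoxin class had 0 of 4 calls, and on the brightest probe sets all 4 mean differences were below 0, with a median of -0.16. Prdx3, the mitochondrial peroxiredoxin, averaged 9.31 in RFC1-/- embryos and 9.54 in RFC1+/+ embryos, and its groups did not overlap, but its difference of -0.22 had an adjusted p of 0.32. Prdx2, which is abundant in red cells, averaged 13.05 in RFC1-/- embryos and 13.17 in RFC1+/+ embryos, a difference of -0.13 (interval -0.37 to 0.11). Prdx4, of the endoplasmic reticulum, differed by -0.02, and Srxn1, sulfiredoxin, which repairs overoxidised peroxiredoxins and is an Nrf2 target, by -0.19. The other Srxn1 probe sets differed by 0.02, 0.06 and -0.39. The last, 1425351_at, lay below the median of all values in every embryo. Its groups did not overlap, with an adjusted p of 0.178 over all probe sets.

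The regulators were not called. Nfe2l2, the gene for Nrf2, had 9.83, 9.58 and 10.13 in RFC1-/- embryos, against 9.39, 9.43 and 9.63 in RFC1+/+ embryos. Each RFC1-/- embryo was above its littermate, but the RFC1-/- embryo of litter 2 lay below the RFC1+/+ embryo of litter 3, and the difference of 0.36 had an adjusted p of 0.136. Keap1 had 8.60, 8.93 and 8.69 in RFC1-/- embryos and 8.76, 8.88 and 8.97 in RFC1+/+ embryos, a difference of -0.13 (adjusted p = 0.639). Nrf2 is controlled largely through the stability of its protein, which arrays do not measure.

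**Figure D4:**
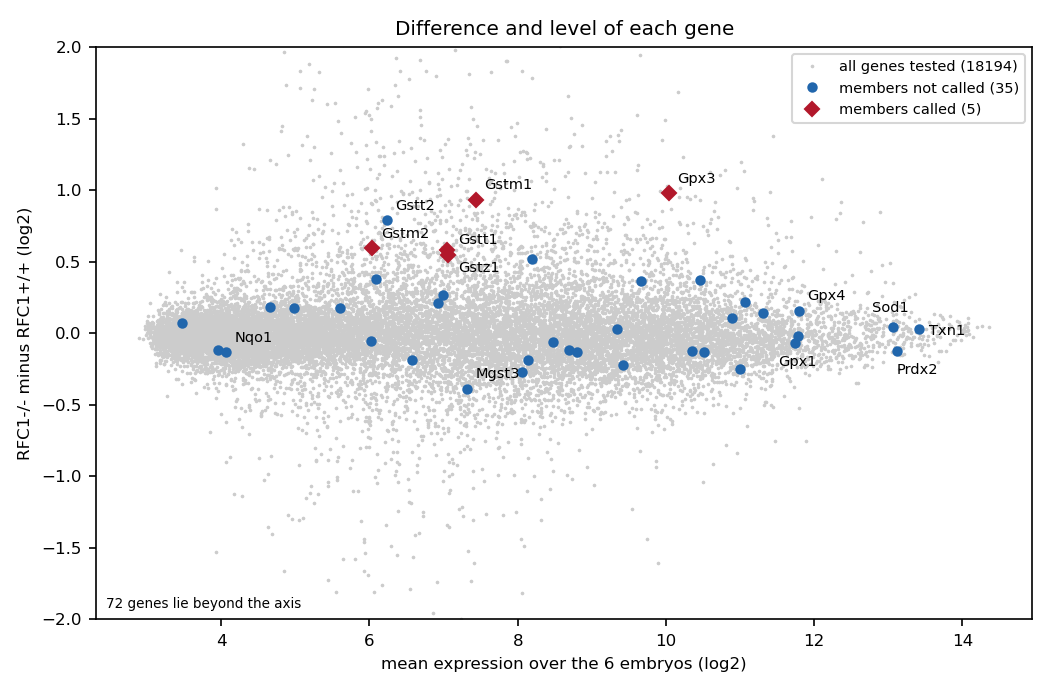
Difference RFC1-/- minus RFC1+/+ (vertical axis, log2) against the mean over the 6 embryos (horizontal axis, log2) for the 18194 genes tested (grey), the 35 genes of the set not called (blue) and the 5 called (red). The 5 called genes lie above most of the grey points at their level, while Gpx1, Gpx4, Sod1, Prdx2 and Txn1 lie near 0.

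Among other redox genes, outside the set, 3 of the 51 measured were higher and 1 lower, beside 3.67% and 1.65% of all genes. Their median difference was 0.01. Selenop, the secreted selenium carrier, had 11.57, 10.97 and 12.28 in RFC1-/- embryos, against 10.59, 10.36 and 10.27 in RFC1+/+ embryos, a difference of 1.20 with an adjusted p of 0.0423. The call was lost without litter 1 (0.073), under the random-variance paired test (0.0518) and after a second quantile normalization (0.0589), and without litter 3 the difference was 0.79. Like Gpx3 it codes for a secreted selenoprotein. In both genes the RFC1-/- embryos ran in the order litter 3, litter 1, litter 2, as they did in Cyba and Glrx below. How many of all genes had this order was not counted. Cyba, the p22phox subunit of NADPH oxidases, had 9.01, 8.59 and 9.15 in RFC1-/- embryos, against 7.91, 8.09 and 7.56 in RFC1+/+ embryos (difference 1.06, adjusted p = 0.0306, and 0.09 without litter 1). Glrx, glutaredoxin, which uses glutathione to reduce protein disulfides, was 0.52 higher with an adjusted p of 0.0453, and this call was lost whichever litter was left out (0.0736 to 0.189) and under 4 other alternatives (0.0502 to 0.0599).

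Idh1 alone of these genes was lower. This cytosolic isocitrate dehydrogenase makes NADPH, which glutathione and thioredoxin reductase consume, and it had 10.53, 10.44 and 10.30 in RFC1-/- embryos, against 11.19, 11.18 and 11.24 in RFC1+/+ embryos. The groups were far apart for their spread, and the difference of -0.78 (adjusted p = 0.0122) was called without each litter in turn, at 0.0121 to 0.0443.

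Of 22 other Nrf2 targets and partners measured, 1 was higher and 1 lower, beside 3.67% and 1.65% of all genes. Their median difference was 0.03. Sqstm1, the p62 adaptor that binds Keap1, was 0.51 higher (adjusted p = 0.0358, but 0.225 without litter 1 and 0.127 without litter 2). With the mean of its probe sets the difference was 0.25 (0.178), and the call was also lost with arrays centred on their median (0.0535) and with the probe set of largest spread (0.051). Blvrb, a biliverdin reductase abundant in red cells, had 6.37, 6.40 and 6.25 in RFC1-/- embryos, against 7.51, 6.90 and 6.86 in RFC1+/+ embryos (difference -0.75, adjusted p = 0.0336, but 0.158 without litter 1 and 0.0598 under the variation filter). Hmox1, heme oxygenase, differed by 0.20 and was not called. The largest differences not called were those of Abcc4 (0.74, adjusted p = 0.0601) and Maff (0.73, 0.0873), both with groups that did not overlap. The RFC1-/- embryos lay above all RFC1+/+ embryos in 6 of the 22 genes and below them in 2, beside 12.8% and 13.4% of all genes.

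The visceral endoderm markers, which were all higher in RFC1-/- embryos, also differed among these embryos, in the order litter 3, litter 1, litter 2 for 12 of 12 markers. Of the 40 antioxidant genes 11 had that order, while 10 had the order litter 2, litter 1, litter 3. The 11 were Gstm1, Gstt2, Gstt3, Gpx3, Mgst3, Gss, Cat, Sod3, Txn1, Prdx2 and Nfe2l2. How many of all genes had either order was not counted, so the 11 are not a result about the set. Gstm2, Gstt1 and Gstz1 were not among the 11. The median difference of the visceral endoderm markers was 3.13, 3.44 and 4.97 in litters 1, 2 and 3, and that of the primitive erythroid markers -3.46, -2.51 and -2.09. Slc4a1, the band 3 protein of red cells, lay below the median of all values in every RFC1-/- embryo, at 3.64, 3.98 and 4.12, against 9.33, 9.12 and 8.32 in RFC1+/+ embryos. The part of either cell type in the differences of Gstm1, Gpx3, Selenop, Prdx2 or Blvrb was not tested.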

How the data were processed

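Total RNA of 6 whole embryos was reverse-transcribed, and biotin-labelled cRNA made from it was hybridised to Affymetrix mouse genome arrays, 1 embryo per array. The authors deposited log2 expression values, made with RMA through BRB ArrayTools. RMA corrects the perfect match probes for background, equalises their distribution between arrays by quantile normalization and summarises each probe set by median polish. Versions of these tools: not given in the sources used here. RMA compresses differences at low levels. All 45101 probe sets were deposited, without the 1.5-fold variation filter of the methods, and 0 columns were unused. Arrays give no read depth, so the number of embryos limits the precision.

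Names came from the annotation of the platform, which gives 1 symbol to 34958 probe sets, several to 932 and none to 9211. Of those with 1 symbol, 34754 had a RefSeq gene ID and 0 symbols changed. Each gene was represented by its brightest probe set on average. In limma the model held genotype and litter, with variances moderated by empirical Bayes and Benjamini-Hochberg adjustment over all 18194 genes or all 45101 probe sets. The scripts were tested on simulated data. Litters come from the labels and methods. Deviations from the group means correlated at 0.10, -0.05 and -0.15 within the 3 litters, so litters shared little. The genes and lists were chosen with earlier results of these data known.

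Values in every embryo are given for each gene of the set that was called, for the 8 not called with the largest mean difference and for the regulators, and the rest by class. Probe sets and cell type markers are named beside results they touch. Alternatives were no block, an intensity trend in the variance, the random-variance paired test of the methods, 2 rescalings of the arrays, filters on dim and on unvarying probe sets, other choices of probe set, leaving out each litter and, chosen after seeing the data, embryo sex as a covariate. Embryo sex was assigned from the level of Xist. Promoters came from RefSeq GRCm38.p6. R 4.3.3 with limma 3.58.1 did the fits. Tables and plots were made in Python 3.11.15 using pandas 2.3.3, numpy 2.4.6 and matplotlib 3.10.9.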

Additional observations from a re-analysis of the deposited data

How the results depend on the processing

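Of the 40 genes of the set, 5 were called higher, and 3 were after a second quantile normalization, 2 after centring each array on its median, 2 among the 7 left by the variation filter, 3 when all probe sets of a gene were averaged, and 1 to 6 when a litter was left out. Without litter 1 the single call was Gpx3, without litter 2 it was Gstm1, and without litter 3 Gpx7 and Gstt2 were added and Gstz1 was lost. The count called lower was 0 to 1 (Mgst3, without litter 3) when a litter was left out, and 0 under the other alternatives. Without the litter as a block 4 genes were called higher (Gstm1, Gstm2, Gsto1 and Gstz1), against 5 with the pairing. The intensity trend, the random-variance paired test and the filter on dim probe sets each gave 4. Embryo sex as a covariate gave 7, with Gpx7 and Gstt2 added. Of the 77 probe sets, 3 were called higher, and 1 under the variation filter, 8 with embryo sex as a covariate (an alternative chosen after seeing the data, which leaves 1 residual degree of freedom) and 0 to 4 when a litter was left out, while 0 to 1 were lower. The median difference of the set was 0.06, and 0.59 over the 7 genes left by the variation filter, which keeps genes that differ between arrays, 0.15 with the probe set of largest spread, which does the same, and 0.03 to 0.06 when a litter was left out. Over all genes 968 were called, and 355 without litter 1, 537 under the variation filter and 1796 with embryo sex. Gpx3 was not called under 7 of 13 alternatives, with adjusted p between 0.0519 without the block and 0.0926 without litter 2 where it was lost. The cause of these changes was not tested. No gene of the set changed sign under either rescaling. With 3 litters the precision is limited, and RMA compresses differences at low levels.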
